A study of Homo sapiens with 2 samples.

Results

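The MYC and MAX network was followed in NB4 cells after knockdown of the lncRNA CRNDE. The 7 genes MYC, MAX, MXI1, MXD4, MNT, MLX and MGA were picked by name, as transcription factor genes of this network, from the 11619 genes that the deposited tables list. NB4 cells were derived from acute promyelocytic leukemia (APL), express PML/RARα and are an established human line. The cells were infected with a lentivirus that carried either a CRNDE shRNA (sh-CRNDE) or a non-targeting shRNA (sh-Control), and RNA was taken at day 3. The study's methods describe both shRNAs in the same vector with ZsGreen1 as selection marker. There was 1 library per group, in 1 cell line, and the sources used here do not give which CRNDE shRNA the sequenced cells carried. No difference below therefore has a replicate check, the order of levels cannot be set against a spread between samples, and no p-value is given.

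The proteins of this network bind DNA as pairs at E-boxes, of which the sequence CACGTG is the best known. MYC pairs with MAX and activates genes of growth and ribosome production, and it is a frequent driver of blood cancers. MAX also pairs with the MXD proteins (MXD4 and MXI1, also called MXD2, among them), with MNT and with MGA. These partners compete with MYC and bring corepressors to the same sites. MLX is a MAX-like protein. It pairs with the glucose-sensing Mondo proteins, MLXIP (MondoA) and MLXIPL, and also with some of the MXD proteins and MNT. In myeloid cells, MYC is known to fall and MXD genes to rise during maturation.

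Values are FPKM, that is fragments scaled to transcript length and to the mapped fragments of the library, so that levels of different genes can be set side by side. The change of a gene is log2(FPKM + 1) in sh-CRNDE less that in sh-Control, a scale that understates the change of low genes, and "rose" or "fell" is written only of a change past 1.5-fold, which is 0.585 on this scale. The target of the knockdown, CRNDE, was at 5.92 FPKM with sh-Control and 1.85 FPKM with sh-CRNDE, a change of -1.28. The median FPKM over all genes was 3.95 with sh-Control and 3.89 with sh-CRNDE, but the sums were 141217 and 170373 FPKM. MT-RNR2, a mitochondrial ribosomal RNA gene, had 27614 FPKM with sh-CRNDE and was listed at 0 with sh-Control. Without mitochondrial genes the sums were 141046 and 142618 FPKM. A 0 can be a failed estimate, and a 0 was listed for 182 genes with sh-Control and for 139 with sh-CRNDE. Of the 7 markers of promyelocytes that were looked up, 6 were listed and ELANE was not. Their summed level was 1426 FPKM with sh-Control and 846 FPKM with sh-CRNDE, of which MPO made up 1135 and 738 FPKM. Of the 6, 4 were lower past 1.5-fold, beside 8.83% of all genes. Among 9 markers of T, B, erythroid and epithelial cells, 5 were not listed and the other 4 summed to 7.40 FPKM with sh-Control and 6.60 FPKM with sh-CRNDE, of which EPCAM made up 4.82 and 4.49 FPKM. The part of such cells in the values below was not tested. In bulk RNA, fewer cells that express a gene and less RNA per cell cannot be told apart.

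All 7 genes were above 0 in both libraries. Of these, MYC fell, MXI1 and MLX rose, and MAX, MXD4, MNT and MGA were not past 1.5-fold. The 3 genes past 1.5-fold were 42.9% of the 7, beside 17.2% of all genes and 14.1% of those at 1 FPKM or more in each library. The 7 genes were chosen with earlier results of these data known, so their share does not test the network. Of the 3 other listed network genes, 0 were past 1.5-fold. By direction, 8.38% of all genes rose and 8.83% fell. Among the 7 genes 3 had a change above 0 and 4 below 0, and their median change was -0.35, beside -0.01 over all genes. At 2-fold no gene of the 7 was past the threshold.

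**Figure D1:**
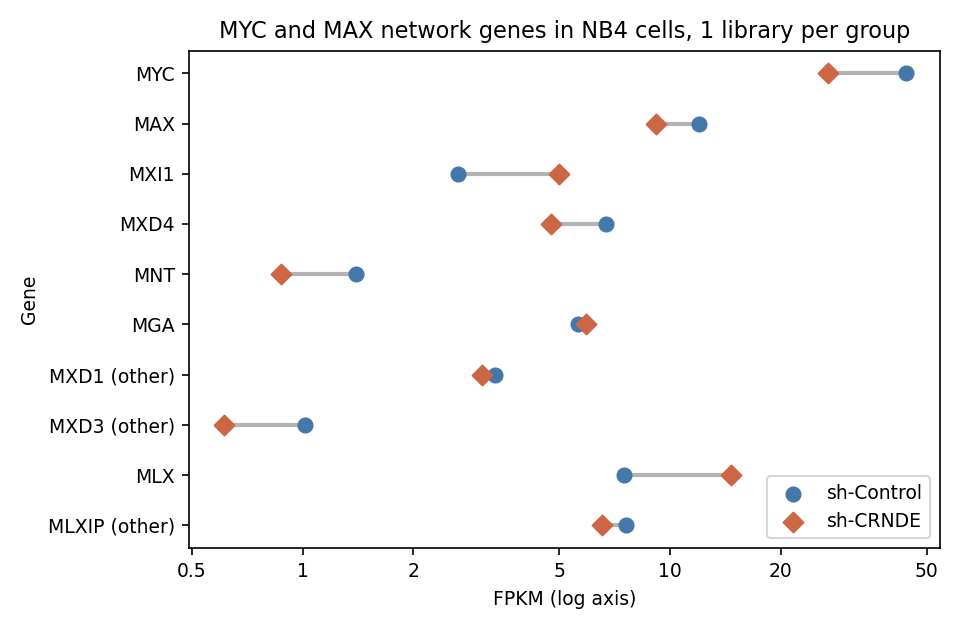
FPKM (log axis) of the 7 network genes and of the other listed genes of the network, marked "other", in sh-Control (circles) and sh-CRNDE (diamonds), with 1 library per point. MYC moved to the left, from 43.8 to 26.9 FPKM, while MXI1 and MLX moved to the right and MGA stayed between 5.6 and 5.9 FPKM.

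MYC, the activator of the network, was at 43.8 FPKM with sh-Control and 26.9 FPKM with sh-CRNDE. It was 1.63-fold lower after CRNDE knockdown, a change of -0.68, and had the highest level of the 7 genes in both libraries. Of all genes, 95.2% had a lower level than MYC with sh-Control and 91.3% with sh-CRNDE. A lower change than that of MYC was found in 6.77% of all genes. Among the 1356 genes with a mean level within 2-fold of that of MYC, 13.5% changed at least as much in either direction. MYC (ENSG00000136997) lies on chromosome 8 from 127735434 to 127742951 on the plus strand (GRCh38, GENCODE release 44), and its canonical transcript has 3 exons.

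MAX, the partner that MYC and the antagonists share, was at 12.0 FPKM with sh-Control and 9.18 FPKM with sh-CRNDE. Its change of -0.35 was not past 1.5-fold. In the same libraries the ratio of MYC to MAX was 3.65 in sh-Control and 2.93 in sh-CRNDE, so MYC remained the more abundant RNA of the pair. A ratio taken within a library does not depend on how the libraries were scaled. Part of the exons of MAX (ENSG00000125952, chromosome 14, 65006174 to 65102695, minus strand) overlaps FNTB on the opposite strand, at 5.08 and 3.37 FPKM, but none of the 2010 bases of the canonical MAX transcript does.

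MXI1, an MXD-type antagonist, was at 2.64 FPKM with sh-Control and 4.98 FPKM with sh-CRNDE. It was 1.88-fold higher after CRNDE knockdown, a change of 0.71, and a higher change was found in 6.02% of all genes. Of the 4077 genes with a mean level within 2-fold of that of MXI1, 12.5% changed at least as much. MXI1 (ENSG00000119950) lies on chromosome 10 from 110207605 to 110287365 on the plus strand and has 6 exons in its canonical transcript.

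The other antagonists did not rise. MXD4 was at 6.70 FPKM with sh-Control and 4.74 FPKM with sh-CRNDE, a change of -0.42. MNT, a large MAX partner found in most cell types, was the lowest of the 7 genes, at 1.40 FPKM with sh-Control and 0.873 FPKM with sh-CRNDE, a change of -0.36. At this low level the added 1 FPKM decides the call. With a pseudocount of 0.1 the change of MNT was -0.62, past 1.5-fold. MGA, which carries a second DNA-binding domain of the T-box type, was at 5.61 FPKM with sh-Control and 5.89 FPKM with sh-CRNDE, a change of 0.06 that turned to -0.01 after correction for GC content, in which the median change of genes with a like GC share is subtracted. MXD4 and MNT are GC-rich, with 63.5% and 61.3% G and C in the canonical transcript. Genes with a like GC share had a median change of -0.27 for MXD4 and -0.23 for MNT, and after its subtraction the changes were -0.15 for MXD4 and -0.13 for MNT. The part of GC content in these values was not tested further. Of the 4925 bases of the canonical MNT transcript, 21.6% overlap a lncRNA gene on the opposite strand that the tables do not list, and the library kit does not keep strand, so fragments of such a pair cannot be told apart. Smaller overlaps with unlisted lncRNA genes on the opposite strand cover 5.21% of the canonical transcript of MYC, 5.37% of MAX and 5.91% of MXI1.

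MLX had the largest change of the 7 genes in size. It was at 7.47 FPKM with sh-Control and 14.7 FPKM with sh-CRNDE, 1.97-fold higher, a change of 0.89. A higher change was found in 4.11% of all genes, and of the 3497 genes with a mean level within 2-fold of that of MLX, 8.38% changed at least as much. MLX (ENSG00000108788) lies on chromosome 17 from 42567072 to 42573239 on the plus strand. Of the 2360 bases of its canonical transcript, 32.8% overlap exons of PSMC3IP on the opposite strand. PSMC3IP was listed at 2.89 FPKM with sh-Control and 3.14 FPKM with sh-CRNDE. Without strand, fragments of the shared bases cannot be told apart, and the part of this overlap in both genes' values was not tested. The Mondo partner of MLX, MLXIP, was at 7.60 FPKM with sh-Control and 6.54 FPKM with sh-CRNDE, a change of -0.19. The ratio of MLX to MLXIP was 0.984 in sh-Control and 2.25 in sh-CRNDE, and that of MLX to MAX was 0.623 and 1.601. In sh-Control MLX was thus level with MLXIP and below MAX, and in sh-CRNDE it was above both.

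The activator was then set against the antagonists. The FPKM of MXI1, MXD4, MNT and MGA summed to 16.3 in sh-Control and to 16.5 in sh-CRNDE, and their sum was thus close to level while MYC fell. The ratio of this sum to MYC was 0.374 in sh-Control and 0.612 in sh-CRNDE, a 1.64-fold higher ratio and a difference of 0.71 in log2 ratio. With MXD1 and MXD3 added to the antagonists the ratio was 0.473 and 0.749. Each antagonist alone gave a difference above 0, from 0.02 for MNT over MYC to 1.61 for MXI1 over MYC. For MXD4 over MYC it was 0.20. All of these share the same MYC value, so their common sign is not a set of separate results. MXD4 and MNT were themselves lower in sh-CRNDE, by less than MYC, and MNT over MYC was close to level. These ratios are of FPKM without GC correction. After GC correction the changes of MXD4 and MNT were -0.15 and -0.13, beside -0.71 for MYC, and the log2 ratio of the antagonist sum to MYC differed by 0.81. The make-up of the sum differed between the libraries. MXI1 made up 16.2% of it in sh-Control and 30.2% in sh-CRNDE, MXD4 41.0% and 28.8%, MNT 8.54% and 5.30%, and MGA 34.3% and 35.7%. The ratio of MXI1 to MXD4 was 0.395 in sh-Control and 1.05 in sh-CRNDE.

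**Figure D2:**
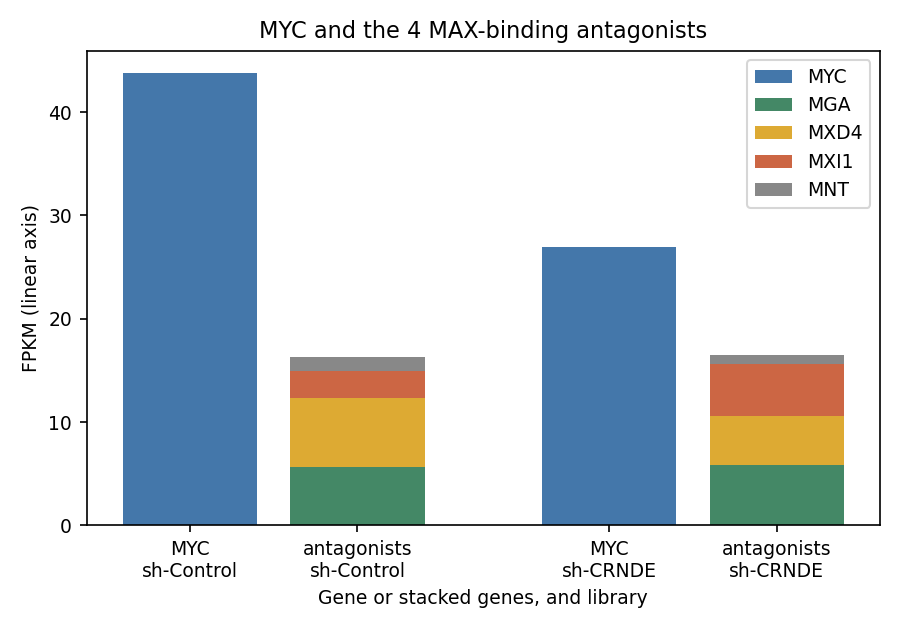
FPKM (linear axis from 0) of MYC and of the 4 MAX-binding antagonists, stacked, in each library. The stacks were of similar height, 16.3 and 16.5 FPKM, the part of MXI1 was larger and that of MXD4 smaller in sh-CRNDE, and the bar of MYC was lower, at 26.9 against 43.8 FPKM.

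Of the other genes of the network, MXD1, MXD3 and MLXIP were listed, and MYCN, MYCL and MLXIPL were not among the listed genes, each of which is above 0.5 FPKM in at least 1 library. MXD1, the antagonist that is best known for its induction in maturing granulocytes, was at 3.34 FPKM with sh-Control and 3.09 FPKM with sh-CRNDE, a change of -0.09. MXD3 was at 1.02 FPKM with sh-Control and 0.610 FPKM with sh-CRNDE, a change of -0.32. None of the 3 was past 1.5-fold with a pseudocount of 1, and with a pseudocount of 0.1 MXD3 was. Of the 6 listed antagonists, MXI1 was therefore the one that rose.

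The promoters of the network genes were searched for CACGTG, the E-box to which these proteins bind and which reads the same on both strands. In the RefSeq promoter sequences (GRCh38.p14, 250 bases before to 50 after a gene start), entries were found for MAX, MXI1, MXD4, MNT, MGA and MLX. The motif was present in the promoters of MLX, MNT and MXD4, once in each, and in none of the promoters listed for MAX, MXI1 and MGA. That is 3 of 11 promoters and 3 of 6 genes, beside 7.26% of all 35116 promoters and 13.3% of the 7942 listed genes with a promoter sequence, which are 68.4% of all listed genes. These 3 promoters are shown because their genes encode proteins of pairs that bind the motif. MLX rose, while MNT and MXD4 were lower without passing 1.5-fold, so the genes with the motif did not share a direction. The capitals mark the E-box, which begins at base -50 relative to the start in MLX, -193 in MNT and -238 in MXD4. The windows are chr17:42566850-42567149 on the plus strand for MLX, chr17:2401011-2401310 on the minus strand for MNT and chr4:2262060-2262359 on the minus strand for MXD4. A match describes the letters only and does not show that a protein was bound.
MLX: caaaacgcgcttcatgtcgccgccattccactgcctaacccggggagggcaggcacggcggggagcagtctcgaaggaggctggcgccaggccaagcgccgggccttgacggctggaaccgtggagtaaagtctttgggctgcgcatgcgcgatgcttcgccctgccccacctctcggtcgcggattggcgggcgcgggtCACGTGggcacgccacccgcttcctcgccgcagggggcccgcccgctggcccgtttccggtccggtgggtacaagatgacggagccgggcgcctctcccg
MNT: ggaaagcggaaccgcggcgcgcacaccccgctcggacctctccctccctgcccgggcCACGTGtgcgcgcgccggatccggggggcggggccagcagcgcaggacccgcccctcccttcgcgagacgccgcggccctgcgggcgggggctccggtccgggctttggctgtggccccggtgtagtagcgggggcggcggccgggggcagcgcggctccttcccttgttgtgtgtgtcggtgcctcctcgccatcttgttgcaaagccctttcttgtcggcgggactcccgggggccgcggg
MXD4: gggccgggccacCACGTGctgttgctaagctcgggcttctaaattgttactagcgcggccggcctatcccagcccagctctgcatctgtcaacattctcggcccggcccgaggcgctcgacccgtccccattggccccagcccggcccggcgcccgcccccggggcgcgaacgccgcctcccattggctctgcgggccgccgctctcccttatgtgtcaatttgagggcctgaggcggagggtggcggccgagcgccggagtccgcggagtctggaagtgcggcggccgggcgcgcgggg

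The miR-181 family was also examined in the study, and the canonical 3' UTRs of the 7 genes were searched for its seed match. The 4 miR-181 members share the seed ACAUUCA (bases 2 to 8, in capitals, RefSeq, GRCh38.p14), whose match in a target reads TGAATGT. MYC holds 1 match in its 3' UTR of 1993 bases, and MAX, MXI1, MXD4, MNT, MGA and MLX hold none. Of the 1713 genes with a 3' UTR within 25% of that length, 23.9% hold a match. MNT, which fell past 1.5-fold only with smaller pseudocounts and after rescaling, was thus among the genes without a match. Over all genes with a 3' UTR, the 2132 genes with a match had a median change of 0.05, and 6.80% of them fell. The 7818 genes without a match had a median change of -0.03, and 8.74% of them fell. Past 1.5-fold in either direction were 15.7% of the genes with a match and 15.6% of those without. These sets were not matched for 3' UTR length or GC content, so a part of miR-181 in the differences was not tested. miRNA levels were not measured in these libraries.
hsa-miR-181a-5p: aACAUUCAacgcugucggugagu
hsa-miR-181b-5p: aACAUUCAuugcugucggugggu
hsa-miR-181c-5p: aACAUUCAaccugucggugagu
hsa-miR-181d-5p: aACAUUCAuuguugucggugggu

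Cofactors of MYC were examined next. Of 19 coactivator genes, all listed, 3 fell and none rose, with a median change of 0.03. HCFC1, a chromatin-bound cofactor of MYC, was at 30.4 FPKM with sh-Control and 14.7 FPKM with sh-CRNDE, a change of -0.999. CDK9, the kinase that releases paused RNA polymerase, was at 15.2 and 7.35 FPKM, a change of -0.96. TRRAP, the scaffold through which MYC recruits histone acetyltransferases, was at 17.7 and 9.08 FPKM, a change of -0.89. The coactivators past 1.5-fold were 15.8% of the list, close to the 17.2% of all genes. All of them fell, beside 8.83% of all genes that fell. CCNT1, at 3.47 and 2.04 FPKM, had a change of -0.56, just short of 1.5-fold. With a pseudocount of 0.1 or 0.01, after rescaling or after GC correction 4 coactivators fell, and with GC correction 1 rose.

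Of 17 genes for the turnover of the MYC protein, 16 were listed, 2 rose and 1 fell, with a median change of 0.09. The share past 1.5-fold was 18.8%, close to the 17.2% of all genes. GSK3B, the kinase that marks MYC for degradation, was at 2.02 FPKM with sh-Control and 6.75 FPKM with sh-CRNDE, a change of 1.36. PPP2R5A, a subunit of the phosphatase that acts in the same degradation route, was at 5.41 and 13.4 FPKM, a change of 1.17. SKP2, a ubiquitin ligase subunit that binds MYC, was at 32.4 and 19.1 FPKM, a change of -0.73. FBXW7, the ligase subunit that recognises the mark set by GSK3B and was named after its values were seen, was at 1.08 and 2.02 FPKM, a change of 0.54 that was not past 1.5-fold. At this low level the added 1 FPKM decides the call. The change of FBXW7 was 0.85 with a pseudocount of 0.1, 0.90 with 0.01 and 0.82 after rescaling without mitochondrial genes, each past 1.5-fold. Of the 16 listed genes, 9 had a change above 0 and 7 below 0. SENP1 (0.47), USP28 (0.40) and KIAA1524 (0.36) were also above 0, and HUWE1 (-0.52) and STUB1 (-0.28) below 0, none past 1.5-fold. The list was not split by whether a gene promotes or opposes degradation, so its counts have no single direction. A part of the degradation route in the level of MYC was not tested. The protein level of MYC was not measured here.

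Corepressors of the antagonists were looked up in turn. Of 17 genes of the SIN3 complex, which MXD proteins and MNT recruit, 16 were listed, 1 rose and 2 fell, with a median change of 0.04. The share past 1.5-fold was 18.8%, close to the 17.2% of all genes. SUDS3, a subunit of this complex, was at 15.5 FPKM with sh-Control and 4.79 FPKM with sh-CRNDE, a change of -1.51, and SAP30, another subunit, at 6.66 and 4.06 FPKM, a change of -0.60. SAP18 was at 20.5 and 44.02 FPKM, a change of 1.07. Of the 12 partners of MGA in its Polycomb complex, all listed, 1 rose and 2 fell, which was 25% of the list beside 17.2% of all genes, with a median change of -0.19. RNF2, the histone H2A ubiquitin ligase of that complex, was at 3.27 and 6.06 FPKM, a change of 0.72. CBX1, a heterochromatin protein, was at 30.7 and 10.8 FPKM, a change of -1.42, and TFDP1, the partner of the E2F factors, at 73.8 and 47.8 FPKM, a change of -0.61. These changes are without GC correction. After it, 0 partners of MGA rose and 2 fell, and 1 SIN3 gene rose and 1 fell.

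Genes that MYC is known to activate did not move as a group. Of 70 such genes, all listed, 5 rose and 3 fell, which was 11.4% of the list beside 17.2% of all genes. The change was above 0 in 35 and below 0 in 35, and the median change was 0.00. CCND2, the cell cycle regulator cyclin D2, was at 9.64 FPKM with sh-Control and 69.0 FPKM with sh-CRNDE, a change of 2.72. TMEM97, a sterol-regulated membrane protein gene, was at 4.01 and 26.0 FPKM, a change of 2.43. GRWD1, a ribosome assembly factor gene, and TFAM, a mitochondrial DNA-binding factor gene, also rose, with changes of 0.95 and 0.88. The genes that fell were SLC19A1, a folate carrier gene (-1.11), FARSA, a phenylalanyl-tRNA synthetase gene (-0.78), and EXOSC5, an RNA exosome gene (-0.62). Their canonical transcripts hold 62.9%, 61.3% and 60.7% G and C, in that order. After GC correction 4 of the 70 genes rose and 1 fell. Promoter sequences were found for 56 of the 70 genes, and 29 of these hold CACGTG. The motif was thus held by 51.8% of these genes, beside 13.3% of the 7942 listed genes with a promoter sequence. Of the 29 genes with the motif 0 rose and 2 fell, with a median change of -0.07. Of the 27 without the motif 4 rose and 1 fell, with a median change of 0.03. Over the 7942 genes, 7.76% of those with the motif rose and 8.99% fell, beside 7.07% and 7.84% without it. The counts by motif are without GC correction, and whether the motif has a part in these changes was not tested.

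Genes that MYC is known to repress, and targets of MLX with its Mondo partners, were few. Of 15 genes known to be repressed by MYC, 10 were listed, 1 rose and 1 fell, which was 20% of those listed beside 17.2% of all genes. FTH1, the ferritin heavy chain, was at 253 FPKM with sh-Control and 114 FPKM with sh-CRNDE, a change of -1.14. The gene that rose was THBS1, at 0.554 and 1.57 FPKM, a change of 0.73 from a low level. NDRG1, also low, was at 0.784 and 0.380 FPKM, a change of -0.37 that was not past 1.5-fold. With a pseudocount of 0.1 or 0.01, 2 of the 10 genes rose and 2 fell. The median change of the 10 genes was -0.08. Of 7 targets of MLX and the Mondo proteins, 5 were listed, 1 rose and 2 fell, which was 60% of those listed beside 17.2% of all genes, with a median change of -0.08. TXNIP, the most widely used readout of MLXIP and MLX activity, was at 10.38 FPKM with sh-Control and 19.5 FPKM with sh-CRNDE, a change of 0.85. ARRDC4, a related arrestin gene driven by the same pair, was at 0.900 and 1.23 FPKM, a change of 0.23. PFKFB3, a regulator of glycolysis, was at 4.44 and 1.995 FPKM, a change of -0.86, and KLF10, a zinc-finger factor, at 3.85 and 1.75 FPKM, a change of -0.82.

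The fall of MYC stood beside a lower level of promyelocyte granule genes. MPO, the peroxidase of the primary granules, was at 1135 FPKM with sh-Control and 738 FPKM with sh-CRNDE, a change of -0.62, and PRTN3, a granule protease gene, was at 200.5 and 41.8 FPKM, a change of -2.23. AZU1 and CTSG also fell, CD33 was at -0.20, and LYZ, at 0.53, was the 1 listed marker with a change above 0. The canonical transcripts of the 4 markers that fell hold from 55.9% (CTSG) to 67.5% (AZU1) G and C. That of CD33 holds 52.6% and that of LYZ 41.3%. These changes are without GC correction, and the part of GC content in them was not tested. Whether the shift in these markers has a part in the values of the MYC and MAX network was not tested.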

How the data were processed

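RNA-seq of NB4 cells was analysed, with 1 sh-CRNDE and 1 sh-Control library, assigned from the sample labels. The labels describe lentiviral infection, while the methods call the sequenced cells retroviral transfected. The authors extracted total RNA, used a TruSeq RNA kit that does not keep strand and sequenced on an Illumina MiSeq. The submitters' processing notes name fastp 0.20.0, HISAT2 2.0.4, StringTie 1.2.3 and GRCh38. The deposited values are FPKM per gene, made by the authors. Each of the 11619 listed genes is above 0.5 FPKM in at least 1 library. FPKM keeps no read counts, so depth is unknown and no counting interval is given.

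From the deposited FPKM, log2(FPKM + 1) was compared between libraries, with 1.5-fold, the fold used in the study, as the threshold and a pseudocount of 1, and no statistical test between the libraries was run. The FPKM of genes were set against each other within a library as ratios. Genes were matched by symbol where it is used once. Coordinates, GC content, exons and 3' UTRs came from GENCODE release 44 (GRCh38), which matched 11508 of the 11619 identifiers. The 7 genes and all lists were chosen with earlier results of these data known. All 7 genes, CRNDE and every listed gene of the list of other network genes were named, and from each other list up to 4 genes past 1.5-fold in each direction, by size, with at least 1 FPKM in both libraries. FBXW7, SENP1, USP28, KIAA1524, HUWE1, STUB1, CCNT1, NDRG1, THBS1, ARRDC4 and the cell type markers are named outside this rule, after their values were seen. The code for changes and calls was checked on simulated FPKM with known changes, which does not stand in for replicates. Python 3.11.15, numpy 2.4.6, pandas 2.3.3 and matplotlib 3.10.9 were used.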

Additional observations from a re-analysis of the deposited data

How the results depend on the processing

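The 7 genes and the lists were recomputed with pseudocounts of 0.1 and 0.01, median centring, quantile normalization, rescaling to an equal sum without mitochondrial genes, correction for GC content in 20 bins, a threshold of 2-fold and a filter at 1 FPKM. Of 192 values, 152 kept their side of the threshold or their count within 1.5 times. Some settings could move little. The filter only drops genes, and the median change that centring removed was -0.006. Counts of 0 that stayed at 0 are among the 152. MYC (-0.71 to -0.67), MXI1 (0.63 to 0.91) and MLX (0.88 to 0.97) stayed past 1.5-fold under every setting but the 2-fold threshold, and MAX (-0.40 to -0.34), MXD4 (-0.50 to -0.15) and MGA (-0.01 to 0.07) stayed under it. MNT was past it with a pseudocount of 0.1 (-0.62) or 0.01 (-0.67) and after rescaling (-0.61). These settings give the added 1 FPKM less weight, so genes near 1 FPKM moved most, and under each of them 2 of the 7 genes fell, 1 of the other network genes fell, 2 SIN3 genes rose, 5 MYC-activated genes fell, and 2 MYC-repressed genes rose and 2 fell. With GC correction 1 coactivator rose, 1 SIN3 gene fell, 0 MGA partners rose and 1 MYC-activated gene fell, and the cause was not tested. At 2-fold the counts were 0 risen and 0 fallen among the 7 genes, 0 fallen coactivators, 0 fallen turnover genes, 1 fallen SIN3 gene, 0 risen and 1 fallen MGA partner, 2 risen and 1 fallen MYC-activated genes, 0 risen MYC-repressed genes, and 0 risen and 0 fallen MLX and Mondo targets. With the filter at 1 FPKM 0 MYC-repressed genes rose. The log2 difference of antagonists over MYC was 0.71, and with MXD4 (0.20) or MNT (0.0235) alone it was under 1.5-fold. No paired analysis was possible because there was 1 library per group.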
